A study of Drosophila melanogaster with 8 samples.

Results

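The comparison set whole larvae of one mutant genotype against whole larvae of another: Hsp90GFP, whose label names the chaperone Hsp90 with a green fluorescent protein tag, against hsromega66, which carries a near-null allele of the long non-coding RNA gene Hsromega. RNA came from wandering larvae of the last larval instar, with 5 larvae pooled per library and 2 libraries per genotype. Per the labels, both genotypes share the background w1118; Sp/CyO' and differ in the allele written after it (hsp90GFP or hsromega66). WT (Oregon R+) and a genotype labelled w1118; Sp/CyO';hsp90GFPhsromega66, with 2 libraries each, serve below only as context. The labels give neither the sex of the larvae, nor the number of copies of each allele, nor the construct behind Hsp90GFP.

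The members were chosen from the authors' deposited table for this pair. Its value for each gene is 1 FPKM per genotype (fragments scaled to gene length and to the mapped fragments of the library), given by the authors under the genotype's name and taken here as pooled over its 2 libraries. The cells under those names hold pairs of numbers, some of them turned into dates, that may be library numbers, and no source used here ties them to samples, so which libraries each value pools could not be checked. Of 15904 rows, 12534 had been tested by the authors, and 7667 of these name 1 gene and reach at least 5 FPKM in either genotype. These 7667 genes are the members. The lowest members by this rule were Syt4, et and tos at 5.00 FPKM each, and RpI135, jnj and CG7685, at 4.99 to 5.00 FPKM after rounding, lay just under the limit. No value per library stood in the tables, so no spread between libraries accompanies any level, and the read depth per library is unknown. A difference is given as log2 of (FPKM in Hsp90GFP + 1) over (FPKM in hsromega66 + 1), which understates changes of low genes, and a fold is the plain ratio of FPKM. Fold intervals are 95% normal intervals from the standard error that the authors' test statistic implies. The deposited p-values do not follow from this normal reading. An interval can therefore be too wide or too narrow beside the p of the same gene, and calls rest on the deposited q alone. A gene is called where its q in the authors' deposited table is under 0.05.

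Hsp90, encoded by Hsp83 in the fly, is an ATP-driven chaperone that folds kinases and steroid hormone receptors with the help of co-chaperones, and it is made in unstressed cells as well as after heat shock. Hsromega makes long nuclear and cytoplasmic RNAs, and the nuclear ones organise omega speckles, stores of RNA-binding proteins such as the hnRNPs. Wandering larvae have left the food, fill their salivary glands with glue proteins and prepare cuticle tanning for pupariation, all under the moulting hormone ecdysone.

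Of the 7667 members, 97 were called (1.27%), with 29 higher (0.378%) and 68 lower (0.887%) in Hsp90GFP than in hsromega66. Over all 12534 tested rows the called share was 0.997%, and over the members tested against WT it was 1.6% for hsromega66 and 1.44% for Hsp90GFP. At such shares a short gene list would often hold no call, so the lack of a call below is no result about a list. The same shares stand beside each count of called list members below. The lists were chosen with earlier results of these data known, so their counts and medians are descriptions. Among the genes that fell most were ebony and pale, which make tanning precursors, the peptide gene Drsl5, the lysozyme LysX and the lipase Lip3. Among those that rose were glutathione transferases, a cuticle protein, the gut protease Jon74E and 3 non-coding RNAs, Hsromega itself among them. The median FPKM of the genes called lower was 57.3 in hsromega66 and 6.78 in Hsp90GFP, and that of the genes called higher was 2.46 and 34.5. The median difference over all members was -0.05, and 7028 members lay within 1 of 0 on the log2 scale. In the authors' deposited table the called genes had a q of 0.00144 to 0.0497, and 285 members (3.72%) had an unadjusted p under 0.05. The lowest q is the same number in the comparisons with WT, so the adjustment may span several comparisons. It need not hold the error rate of this pair alone. Adjusting p by Benjamini-Hochberg within this comparison kept 51 of the 97 calls. No called gene had a log2 ratio of FPKM under 1.60 in size, while the median implied standard error was 0.878 on the same scale.

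**Figure D1:**
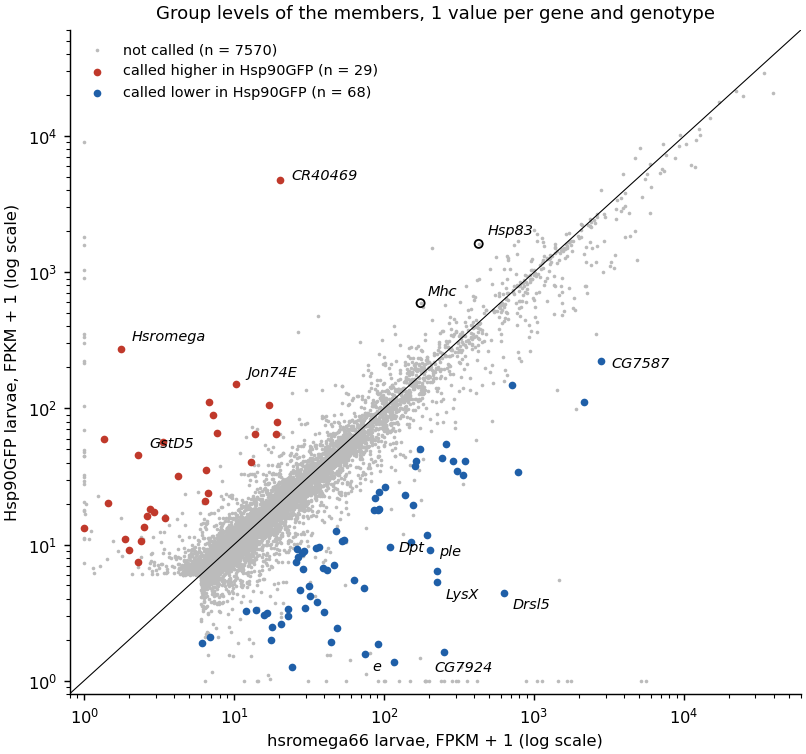
Each point is 1 member gene, with its FPKM + 1 in hsromega66 larvae on the x axis and in Hsp90GFP larvae on the y axis, both on log scales; red points are the 29 genes called higher in Hsp90GFP, blue points the 68 called lower, and open circles mark Hsp83 and Mhc, which were not called. Most genes lie on the diagonal, and points on the axes are genes listed at 0 in 1 genotype.

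Of the members, 27 were listed at 0 in hsromega66 and 31 in Hsp90GFP. Of these, 56 were rows of microRNAs, snoRNAs or snRNAs, and 1 was called, CG32581, which was listed at 0 in hsromega66 and at 12.2 FPKM in Hsp90GFP. The short RNAs along the axes of the scatter plot therefore add nothing to the counts of called genes.

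The 2 loci named by the genotypes were checked first. Hsromega (FBgn0001234, a long non-coding RNA gene, dm6 3R 21296127 to 21317836, plus strand) was at 0.767 FPKM in hsromega66 and 273 in Hsp90GFP, beside 236 in WT. It was 357-fold higher in Hsp90GFP (95% interval 24.4 to 5220.4), and it was called, with a q of 0.00144 in the authors' deposited table. The near-null label of hsromega66 thus held at the level of this RNA. In the libraries labelled as the recombinant Hsromega was at 77.9 FPKM, below WT and far above hsromega66. As the labels do not give the number of copies of each allele, whether this level goes against the recombinant label cannot be told. Hsp83 (3L, in a row from 3192969 to 3197631) was at 427 FPKM in hsromega66 and 1616 in Hsp90GFP, 3.78-fold more (95% interval 0.983 to 14.6). WT was at 371 FPKM and the libraries labelled as the recombinant at 968, so both genotypes with the Hsp90GFP label lay above both without it. In the authors' deposited table this difference had a q of 0.0951, which is no call, with an unadjusted p of 0.0096. The normal interval includes 1 although that p is small, so the interval and the authors' test differ here.

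The genes next to Hsp83 had higher levels in Hsp90GFP too, mostly without a call. Over a stretch of 74.4 kb of 3L, from CG32280 at 3162180 to CG11505 ending at 3236604, 20 consecutive rows had at least 5 FPKM in either genotype, merged rows included, and 19 of them were above 0. Their median difference was 1.18, and it was 1.18 for the 19 rows without Hsp83. For the 14 rows of 1 gene that are neither Hsp83 nor a snoRNA it was 0.96. CG32276, which lies next to Hsp83, was at 512 FPKM in hsromega66 and 1059 in Hsp90GFP, with 503 in WT. The gene gry, just beyond it, was at 8.57 and 22.1 FPKM. CG14966 was at 20.2 and 45.8 FPKM, with an unadjusted p of 0.510 in the authors' deposited table. Its row has the same coordinates as the Hsp83 row, so its value may not be separate from that of Hsp83. CG14966 is 1 of the 14 rows above. The merged row of RpL28, a protein of the large ribosomal subunit, and its snoRNAs was at 1622 and 8899 FPKM. rasp, at the left end of the stretch, was the 1 row below 0, with 9.53 FPKM in hsromega66 and 6.49 in Hsp90GFP.

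Only 2 rows of the stretch were called. CG14964, now named MnM, rose from 1.63 to 15.3 FPKM, and CG14957 rose from 5.797 to 109.8 FPKM. CG14957 was at 54.7 FPKM in WT, so its level in hsromega66 was low. CG32284 differed little between the genotypes (126 and 164 FPKM) and was at 10.3 FPKM in WT.

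The shift ended sharply on both sides. The 10 rows to the left had a median difference of 0.05 and the 10 rows to the right one of -0.39. Next to the left edge, pfk was at 6.89 and 6.95 FPKM and NDUFS3 at 30.0 and 32.1 FPKM. Next to the right edge, CG17746 was at 29.9 FPKM in hsromega66 and 21.8 in Hsp90GFP. Set against WT, the same 20 rows had a median of 1.10 in Hsp90GFP, 0.04 in hsromega66 and 0.82 in the libraries with the recombinant label, where 19 of the 20 were above WT. The stretch thus stood higher in both genotypes with the Hsp90GFP label and near WT in hsromega66. Among 8071 windows of 11 neighbouring rows across the genome, the highest median, 1.81, was that of the window from CG32280 to Hsp83. Of the 12 highest windows, 11 lay in this region. Windows that follow each other share nearly all their rows, so these 11 are views of 1 region and not separate results. The edges were drawn after the values were seen, so these medians are a description with no test.

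**Figure D2:**
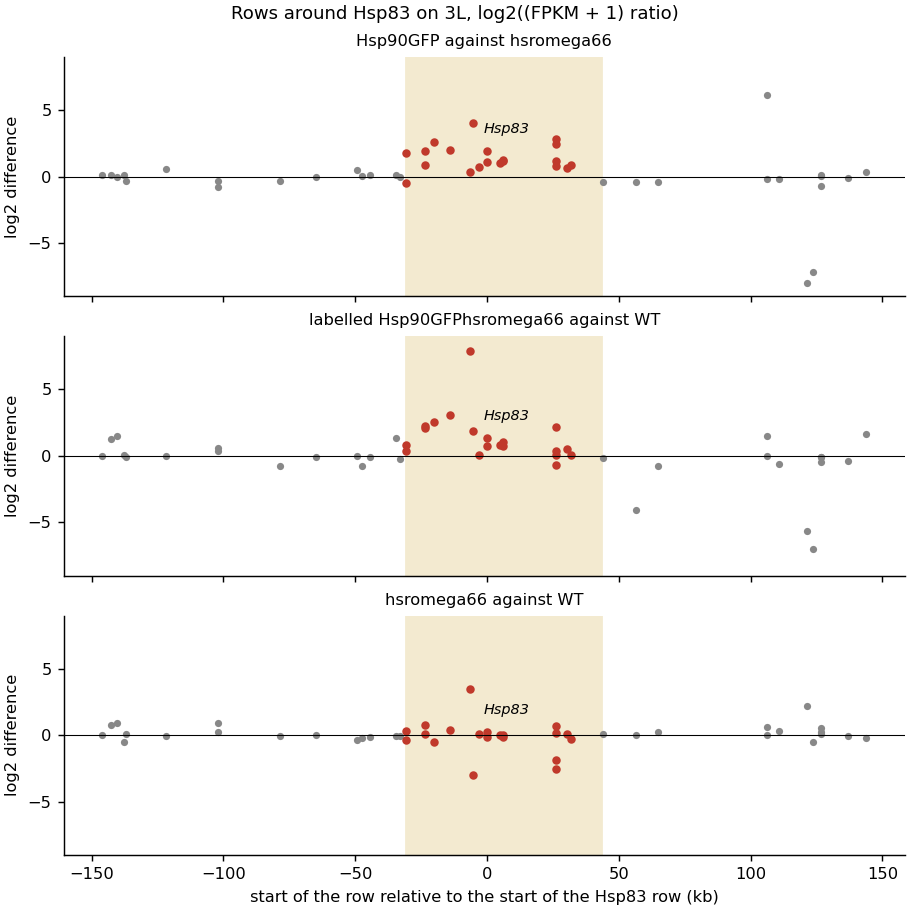
Each point is 1 row of the table by its start relative to the start of the Hsp83 row (x axis, kb), with its log2((FPKM + 1) ratio) on the y axis for Hsp90GFP against hsromega66 (top), the libraries labelled as the recombinant against WT (middle) and hsromega66 against WT (bottom). Red points on the shaded band are the 20 rows of the stretch, which lie mostly above 0 in the top and middle panels and around 0 in the bottom panel; the 2 low grey points at the right are Drsl2 and Drsl5.

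Around Hsromega no such shift was seen. Of 13 other rows within 70 kb of it, 1 was called, the tanning gene ebony, and the others lay between -0.76 and 0.16. CG16791, the next gene on the right, was at 21.7 FPKM in hsromega66 and 17.2 in Hsp90GFP.

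Antimicrobial peptide genes held 4 of the genes that fell. These are the secreted effectors that the Imd and Toll pathways switch on in the fat body and gut. Of 13 members of the list, 4 were called lower and none higher, against 0.887% lower and 0.378% higher over all members. The median difference was -3.09, against -0.05 over all members. Drsl5, a relative of the antifungal peptide drosomycin (3L 3316781 to 3317144), fell 183-fold (95% interval 38.2 to 879), from 629 to 3.43 FPKM. The attacin AttB fell from 39.1 to 2.17 FPKM, the diptericin Dpt from 109 to 8.61 and the drosocin Dro from 28.9 to 2.39. Dro and AttB are neighbours on 2R, with 2508 bases between them. AttA, whose sequence is nearly the same as that of AttB, was at 12.01 and 0.523 FPKM and not called, and no source used here says how the authors' counting divided reads between such copies.

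The remaining members of that list had wide errors or smaller differences. Drsl2, which lies next to Drsl5, was at 325 FPKM in hsromega66 and 0.254 in Hsp90GFP, yet its q was 0.675 in the authors' deposited table. Mtk, the antifungal metchnikowin, was at 337 and 26.8 FPKM, also not called. DptB was at 38.0 and 6.44 FPKM and AttD at 39.8 and 7.89 FPKM, with q of 0.0520 and 0.0706 in the authors' deposited table. Drosomycin itself, Drs, went the other way with 390.3 FPKM in hsromega66 and 672 in Hsp90GFP, not called. CecC and Def were also above 0.

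WT did not lie on the same side for all of these peptides. For Drsl5 it was high (903 FPKM), near hsromega66. For AttB (2.51 FPKM) and Dro (1.65 FPKM) it was low, near Hsp90GFP. Dpt was between, at 25.6 FPKM in WT. In the libraries labelled as the recombinant AttB, Dpt and Dro were at 108, 542 and 179.8 FPKM, above each of the other groups, while Drsl5 was at 5.88 FPKM.

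Other immune peptides included 1 called gene among the 9 immune-induced short peptides, with a median of -1.16. IM14, a Daisho peptide of the Toll response, fell from 151 to 9.51 FPKM, with 577 FPKM in WT. Outside the lists, Listericin, a peptide active against Listeria, fell from 258 to 54.1 FPKM, and CG43236, now Mtkl and named for its likeness to metchnikowin, fell from 345 to 39.8 FPKM. None of the 10 peptidoglycan recognition proteins, which sense or cut pieces of bacterial cell wall, was called, and their median was -0.24. They ranged from PGRP-SB2 (16.3 and 0.0302 FPKM, q of 0.872 in the authors' deposited table) to PGRP-LC (17.6 and 20.3 FPKM), and PGRP-SB1, at 22.3 and 8.12 FPKM, was the 1 member with an unadjusted p under 0.05.

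Of 7 lysozyme members, which cut bacterial cell walls, 1 fell, and all lay below 0 with a median of -1.52. LysX (3L 1194739 to 1195302) fell 52.4-fold (95% interval 14.8 to 186), from 224 to 4.27 FPKM. LysS was at 3195 and 1116 FPKM and LysD at 3460 and 1343 FPKM, not called, while WT was at 779.96 and 5.49 FPKM. LysB, LysC, LysD and LysE are near copies of one another in 1 cluster, so their separate values are uncertain. The 6 lowest of the 8071 windows of neighbouring rows all held lysozyme genes, with a lowest median of -1.42. These windows overlap one another, so they are 1 cluster counted repeatedly.

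Among 16 amylases, maltases and lipases, which break down starch, sugars and fat, 14 lay below 0 and the median was -1.04. Of these 16, 2 were called lower, beside 0.887% over all members. The lipase Lip3 fell 46.8-fold (95% interval 12.2 to 180.3), from 43.1 to 0.921 FPKM. The maltase Mal-A1 fell from 40.5 to 5.53 FPKM. WT was at 1.75 FPKM for Lip3 and 5.07 for Mal-A1, close to Hsp90GFP. Amy-d, an alpha-amylase, was at 171 and 34.2 FPKM and not called, with a q of 0.0510 in the authors' deposited table.

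Among 28 gut serine proteases, 1 fell and 1 rose, 21 lay below 0 and the median was -0.87. The trypsin gene thetaTry fell from 91.1 to 23.4 FPKM, with WT at 24.1 FPKM. The Jonah protease gene Jon74E rose 15.99-fold (95% interval 4.63 to 55.2), from 9.33 to 149 FPKM, with WT at 29.7 FPKM. Jon25Biii, at 4839 and 1239 FPKM, was the lowest of the list by log2 difference and was not called. Summed over the list, the protease genes had 27434 FPKM in hsromega66, 14607 in Hsp90GFP and 14077 in WT, so hsromega66 was the highest of these 3 groups.

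Of 17 genes for sterol and carotenoid transport 1 fell and none rose, 14 lay below 0 and the median was -0.28. The called gene was ninaD, a scavenger receptor for carotenoids, which fell from 84.2 to 16.9 FPKM. Both genotypes were above WT, which was at 0.682 FPKM. Outside the lists, vanin-like, a pantetheinase relative, fell from 51.6 to 9.63 FPKM, while Btd, now Btnd and the fly biotinidase, rose from 3.21 to 31.0 FPKM. These 2 genes lie 14708 bases apart on the X chromosome. In whole larvae, fewer cells of a tissue and less RNA per cell cannot be told apart, and this holds for all levels given here.

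Tanning genes had 3 called members of 14, all lower in Hsp90GFP, beside 0.887% called lower over all members. Tanning joins dopamine derivatives and beta-alanine into the cuticle, and the 3 genes act at different steps of it. ple, which encodes tyrosine hydroxylase and makes the precursor of dopamine, fell 24.96-fold (95% interval 6.83 to 91.2), from 201 to 8.07 FPKM. b (black), whose enzyme makes beta-alanine, fell from 26.6 to 3.63 FPKM. e (ebony, FBgn0000527, 3R 21229839 to 21237177), which couples beta-alanine to dopamine, fell 131-fold (95% interval 26.1 to 653), from 73.3 to 0.562 FPKM.

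For all 3 genes WT was near hsromega66, with 114.8 FPKM for ple, 27.4 for b and 42.8 for e. In the authors' deposited table their q against WT was 0.00264, 0.00144 and 0.00144 for Hsp90GFP, and 0.749, 0.994 and 0.735 for hsromega66. The libraries labelled as the recombinant were also low, with 11.3, 1.38 and 0.925 FPKM. Ddc, the dopa decarboxylase that makes dopamine, was at 240.3 and 112 FPKM and not called. The prophenoloxidases PPO1 and PPO2, which crystal cells of the blood make, were higher in Hsp90GFP (68.3 and 304 FPKM, 76.7 and 191 FPKM) and not called. The list's median was -0.44.

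**Figure D3:**
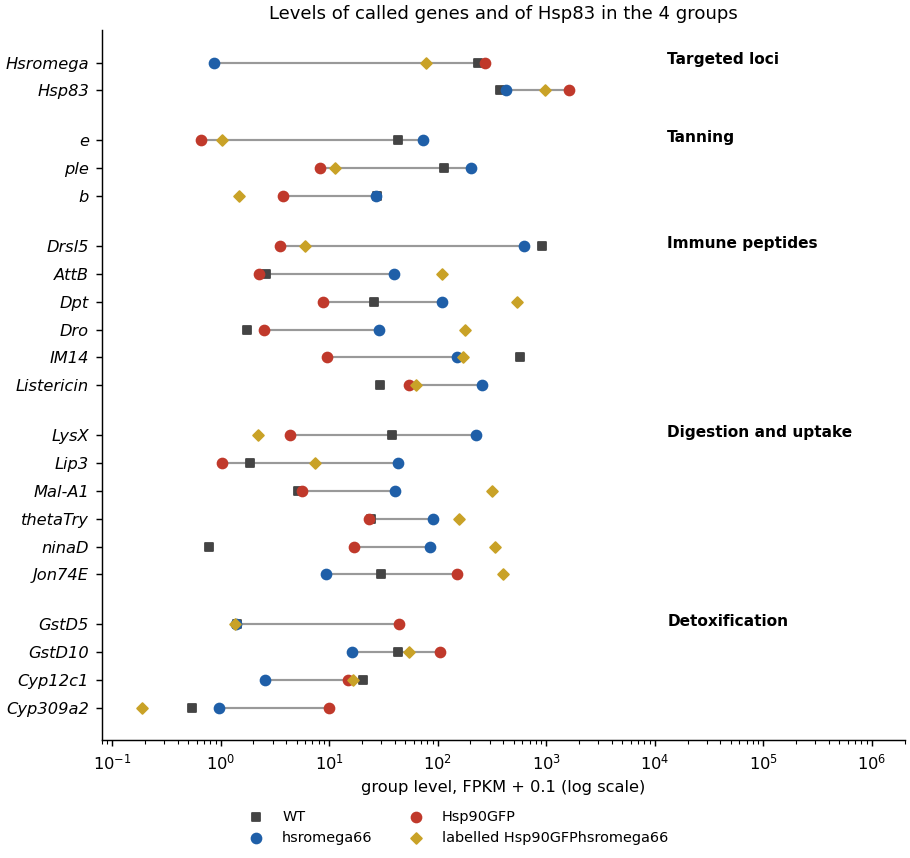
The group FPKM + 0.1 (x axis, log scale) of Hsromega, Hsp83 and 19 called genes in WT (squares), hsromega66 (blue), Hsp90GFP (red) and the libraries labelled as the recombinant (diamonds), with a grey line from hsromega66 to Hsp90GFP; each symbol is 1 pooled value. For e, ple, b and Drsl5 WT lies beside hsromega66, and for AttB, Dro, Lip3, Mal-A1 and thetaTry it lies beside Hsp90GFP.

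Calls were few among cuticle and hormone genes, as they were over all members (1.27%). Of 38 larval and pupal cuticle proteins 1 rose, Cpr65Av, from 2.36 to 55.4 FPKM (23.5-fold, 95% interval 5.46 to 101), with WT at 35.3 FPKM; the median was -0.19. Of 29 genes for chitin and its turnover none was called, 22 lay below 0 and the median was -0.44. They ranged from obst-G (31.6 and 10.7 FPKM) to Idgf5 (15.1 and 25.1 FPKM). Of 16 ecdysone response genes 1 fell, the nuclear receptor gene Eip78C, from 38.4 to 5.70 FPKM, with 23.7 FPKM in WT. EcR, the ecdysone receptor, was at 48.0 and 66.6 FPKM, and the list's median was -0.14. The 8 juvenile hormone genes all lay above 0, with a median of 0.32 and no call, from JhI-21 (14.7 and 14.8 FPKM) to JhI-26 (53.3 and 80.5 FPKM).

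Salivary gland genes had no call among 13 members, and their median was -0.55. Eig71Eg was the lowest, with 19.6 FPKM in hsromega66 and 1.91 in Hsp90GFP (q of 0.0501 in the authors' deposited table), and Sgs1 was the highest, with 8.62 and 22.2 FPKM. The main glue genes Sgs7, Sgs8 and Sgs5 were at 39513, 4321 and 5986 FPKM in hsromega66 and at 20821, 2725 and 4232 in Hsp90GFP. Outside that list CG7587, now Sgs5bis and named as a relative of Sgs5, fell from 2783 to 223 FPKM, with 145 FPKM in WT.

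Detoxification genes were among those that rose. Of 38 glutathione and glucuronosyl transferases, which attach glutathione or sugars to foreign compounds, 2 were called higher and none lower. Over all members 0.378% were called higher. GstD5 rose 34.1-fold (95% interval 5.33 to 219), from 1.29 to 44.1 FPKM, with a q of 0.0185 in the authors' deposited table. WT was as low as hsromega66 for GstD5, at 1.32 FPKM. GstD10, which lies 9997 bases away on 3R, rose from 16.2 to 106 FPKM, with 43.1 FPKM in WT. Of the members not called, 7 lay above 1 on the log2 scale, up to GstE5 (1.46 and 9.91 FPKM), and 17 lay below 0, down to GstT3 (73.8 and 32.2 FPKM). The median of the list was 0.16. Of 46 cytochrome P450 genes, 2 rose, Cyp309a2 from 0.859 to 9.95 FPKM and the mitochondrial Cyp12c1 from 2.46 to 14.8 FPKM. Cyp4e3 lay lowest, at 21.3 and 4.30 FPKM, not called, and the median was 0.06. The peroxiredoxin gene Prx2540-2 rose from 12.9 to 63.9 FPKM; it has a near copy, Prx2540-1, so its value is uncertain.

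Other genes that rose had varied roles. CG3292, now Alp7, an alkaline phosphatase, rose 166-fold (95% interval 28.7 to 963), from 0.353 to 58.7 FPKM. In the authors' deposited table its p was 0.0026 and its q 0.0362, so this interval is narrower than that test implies. IntS12, a subunit of the Integrator complex that cleaves nascent RNA, rose from 1.75 to 17.1 FPKM. Tektin-C, a microtubule protein of flagella, rose from 1.92 to 16.4 FPKM, while none of 28 testis and male-enriched markers was called and their median was -0.08. ry, xanthine dehydrogenase of purine breakdown and eye pigment, rose from 1.28 to 6.38 FPKM, and WT was at 9.26 FPKM. It was the 1 gene that rose of 14 for S-adenosylmethionine and amino acid metabolism, in which ple fell and the median was 0.17. GIIIspla2, a secreted phospholipase A2, rose from 18.2 to 78.4 FPKM. The serpin Spn88Eb rose from 18.1 to 64.1 FPKM, and Odc2, an ornithine decarboxylase, rose from 1.39 to 9.59 FPKM.

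CG15534, CG13947 and CG10073 rose as well, from 0.452 to 19.1, from 6.18 to 87.8 and from 6.67 to 65.1 FPKM. CG13947 was the 1 called gene in the fat body list, where no role for it can be stated here. The storage proteins Lsp1alpha, Lsp1beta and Lsp2 of that list were at 5952, 7222 and 9468 FPKM in hsromega66 and at 6193, 8825 and 10151 in Hsp90GFP, none called.

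Among non-coding RNAs, CR40469, a gene near the tip of the X chromosome, rose 245-fold (95% interval 57.6 to 1044), from 19.3 to 4742 FPKM. WT was at 3884 FPKM, like Hsp90GFP, and the libraries labelled as the recombinant at 26.9 FPKM, like hsromega66. Its neighbour CG17636, 1663 bases away, went the other way and fell from 23.3 to 0.259 FPKM. The alphagamma-element CR32865 rose from 1.51 to 12.4 FPKM; such elements occur in several near copies between the Hsp70 genes, so its value is uncertain. CG43166, annotated as the long non-coding RNA CR43166, fell from 779.7 to 32.8 FPKM, with 229 FPKM in WT.

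Several of the genes that fell furthest are named only by a CG number in the annotation used. CG7924 (3L 14233469 to 14234609) fell 404-fold (95% interval 70.04 to 2331), from 249 to 0.617 FPKM. In the authors' deposited table its p was 0.00085 and its q 0.0151, so this interval too is narrower than that test implies. Its neighbour CG7906, 2025 bases away, fell from 225 to 5.40 FPKM. CG34193 fell from 115.2 to 0.371 FPKM, CG9822 from 89.8 to 0.872 and CG13606 from 47.9 to 1.42. CG15282 fell from 2141 to 111 FPKM. WT was at 36.7 FPKM for CG13606 and higher for the other 5, up to 488 FPKM for CG15282. CG33346, in contrast, fell from 193 to 10.7 FPKM with WT at 12.7 FPKM. Of the 97 called genes, 59 stand under a CG number in the deposited table, and 49 (50.5%) have no other name in the annotation used, against 31.9% of all members.

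Among called genes with known roles outside the lists, slbo, a C/EBP transcription factor, fell from 12.98 to 2.28 FPKM. CIAPIN1, a factor for iron-sulphur cluster assembly, fell from 162 to 39.7 FPKM, and the aminopeptidase SP1029 from 36.1 to 8.55 FPKM. Ptp52F, a receptor tyrosine phosphatase, had the smallest called change on the log2((FPKM + 1) ratio) scale and fell from 25.1 to 8.32 FPKM.

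None of 21 sarcomere genes of muscle was called, 20 of them lay above 0, and their median difference was 1.08. Mhc, the muscle myosin heavy chain, was at 174 FPKM in hsromega66 and 593 in Hsp90GFP (3.40-fold, 95% interval 0.860 to 13.4), with WT at 501 FPKM. TpnC47D, a troponin C, was at 92.1 and 252 FPKM, with the lowest q of the list (0.0860 in the authors' deposited table). The titin-like gene sls was at 20.3 and 60.7 FPKM and the myosin light chain gene Mlc2 at 1042 and 1919 FPKM. Mlp84B was the 1 gene below 0, at 304 and 279 FPKM.

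Summed over the list, muscle genes had 7745 FPKM in hsromega66, 14235 in Hsp90GFP and 11749 in WT, so hsromega66 was the lowest. Of 19 glycolysis genes 16 lay above 0, with a median of 0.59 and no call. They ranged from Gpdh (81.4 and 64.7 FPKM) to Pgi (111 and 212 FPKM). The 17 genes of the respiratory chain and ATP synthase had a median of 0.30, 15 above 0 and no call, from Cyt-c-p (90.8 and 78.7 FPKM) to blw (137 and 218 FPKM). The 14 hemocyte markers had a median of 0.29 and no call, from NimC2 (81.8 and 61.4 FPKM) to PPO1 (68.3 and 304 FPKM). The summed level of the muscle list was thus higher in Hsp90GFP than in hsromega66 and that of the gut protease list lower, and their part in the other differences was not tested.

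**Figure D4:**
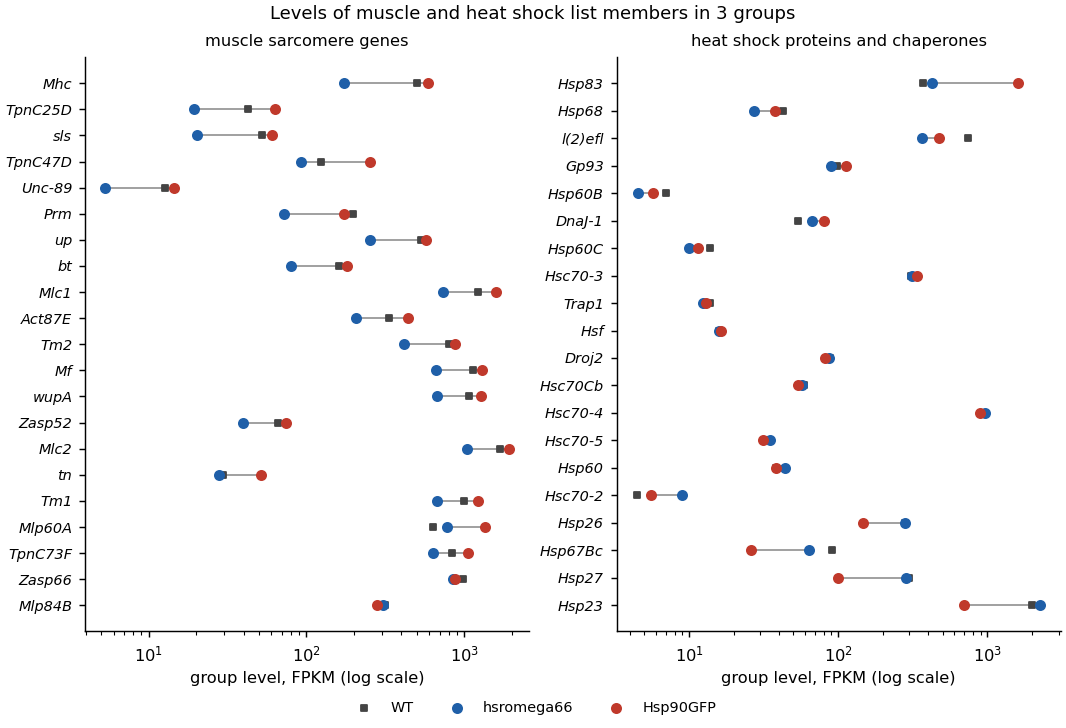
Group FPKM (x axis, log scale) of the members of the muscle list (left) and the heat shock and chaperone list (right) in WT (squares), hsromega66 (blue) and Hsp90GFP (red), 1 pooled value per symbol, ordered by log2 difference. Red lies to the right of blue for 20 of 21 muscle genes and for 10 of 20 heat shock and chaperone genes.

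Heat shock proteins and chaperones had no call among 20 members, beside 1.27% called over all members, and their median was -0.02. Hsp83 was the highest. The lowest were 4 small heat shock genes of 3L, which act as holdases that keep damaged proteins from clumping. Hsp23 was at 2266 and 702 FPKM, Hsp27 at 287 and 100.3 FPKM, Hsp67Bc at 63.8 and 25.9 FPKM and Hsp26 at 279.5 and 147 FPKM. WT was at 1995, 296, 90.3 and 281 FPKM, near hsromega66 for all but Hsp67Bc, which it exceeded. Their q ran from 0.0936 for Hsp27 to 0.503 for Hsp26 in the authors' deposited table. The constitutive Hsc70-4 was at 959.8 and 894 FPKM, and Hsf, the heat shock transcription factor, was at 15.9 and 16.5 FPKM. None of 11 Hsp90 co-chaperones was called, and they lay between -0.42 and 0.19, with a median of -0.03.

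The RNA-binding proteins of omega speckles likewise had no call, among 20 members, with a median of -0.03 and a range from -0.34 to 0.46. No member was called among 80 cytoplasmic ribosomal proteins (median -0.07), 70 mitochondrial ribosomal proteins (median -0.14), 32 proteasome subunits (median -0.03) or 25 cell cycle genes (median 0.04). The dosage compensation RNAs roX1 and roX2, which males make, were at 143 and 179.9 FPKM in hsromega66 and at 183 and 133 FPKM in Hsp90GFP, not called. With a median implied standard error of 0.878 per gene, these values do not show that the levels were alike.

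**Figure D5:**
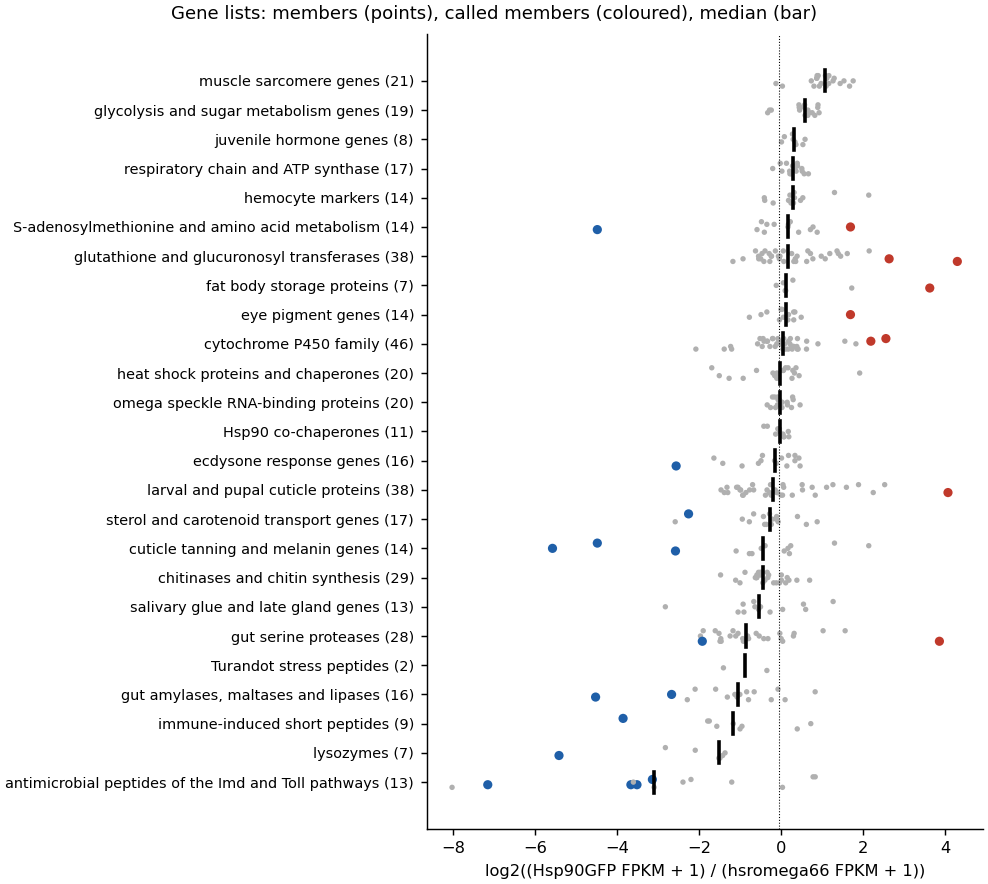
Each row is a gene list with its number of members, each point a member at its log2((Hsp90GFP FPKM + 1) / (hsromega66 FPKM + 1)) on the x axis, red or blue where called, and the black bar is the list's median; the dotted line is the median of all members. The immune and gut lists lie to the left, the muscle and glycolysis lists to the right without any called gene, and the heat shock, co-chaperone and omega speckle lists are centred on the dotted line.

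WT lay between the genotypes for 64 of the 97 called genes, below both for 20 and above both for 13. It was nearer to hsromega66 for 48 and nearer to Hsp90GFP for 49 on the log2(FPKM + 1) scale. Of the genes called lower in Hsp90GFP it was nearer to each genotype for 34. The called genes were picked for a wide gap between the genotypes, which by itself favours a WT value in between. No such count was made over all members. Across the called genes, neither genotype alone stood apart from WT. WT also has another background than both, so these positions mix the alleles with the stocks.

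By chromosome, 54 of 3396 members on chromosome 3, which holds Hsp83 and Hsromega, were called (1.59%), and 43 of 4271 elsewhere (1.01%). The share was highest on arm 3L (1.86% of 1504 members) and lowest, chromosome 4 aside, on 2L (0.63% of 1429). On the X chromosome, 5 were called higher and 4 lower, and on chromosome 4 none of 66 was called. The median difference lay between -0.07 and 0.04 on every arm. Of called genes that neighbour another called gene within 20 kb there were 9 pairs, 7 of which changed in the same direction. As 70.1% of the called genes were lower, pairs would often share a direction anyway, and this was not tested. Besides the pairs named above, the pairs were CG44624 and CG44625 on 2R, CG32241 and CG13722 on 3L, and CG13311 and CG34426 on 3L, all lower in Hsp90GFP. The alleles and the linked DNA of each stock cannot be told apart.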

How the data were processed

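Per the labels' protocols, 8 libraries (4 genotypes with 2 each, 5 whole larvae per library) were made with a stranded kit that removes ribosomal RNA, and read as 50 bp pairs. Cuffdiff 2.1.1, Cufflinks, TopHat, Bowtie and the build dm6 are named in the submitters' processing notes. No source used here says whether counting used the strand. Per the file headers, the deposited tables hold 1 FPKM per group and gene. The implied standard error is the log2 ratio divided by the deposited Cuffdiff statistic, a score. Calls took the deposited q-value under 0.05 with status OK, and the lowest deposited p-value was 5e-05. This rule matched the authors' own flag on every tested row. As nothing says that the libraries came from separate cultures, the spread between libraries that enters these p-values may be technical.

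Differences were computed afresh with a pseudocount of 1 FPKM. The members (at least 5 FPKM in either group) and the 43 gene lists were chosen with earlier results of these data known. Lists are described by counts and medians, without a test. In 3 members a spreadsheet date stands in place of the symbol; they were counted and not named. The 637 rows that merge several genes are not members and enter only the stretch around Hsp83 and the windows of neighbouring rows. Of the members, 7629 had a FlyBase identifier through RefSeq and Ensembl release 115, and 7628 of their loci overlapped that annotation.

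The rule for named genes took Hsromega, Hsp83, the 12 highest and 12 lowest called genes, up to 3 called RNA rows per direction, up to 4 called members per list, the highest and lowest member of lists without a call whose median was over 0.3 from that of all members, and called neighbours. Other genes named, among them the rows around Hsp83, list members that were not called and the called genes of known function, were chosen after their values were seen. All steps ran in Python 3.11.15 with pandas 2.3.3, numpy 2.4.6, matplotlib 3.10.9 and scipy 1.17.1. The alternative z test was run on simulated data, with planted changes larger than nearly all called here and normal noise from the same implied standard errors. That run checks the computation and does not show how well the test suits these data.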

Additional observations from a re-analysis of the deposited data

How the results depend on the processing

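With 29 genes called higher and 68 lower, a deposited q under 0.01 left 20 and 42. Adjusting the authors' p over this table alone by Benjamini-Hochberg left 16 and 35, all 51 among the 97. A z test on median-centred log2 ratios with the implied standard errors called 13 and 33, of which 29 were among the 97. At a minimum of 20 FPKM, 18 higher and 59 lower were left. The other minima and the merged rows kept both counts within 1.5 times. The share of higher calls stayed between 23.4% and 34.2%.

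Of the medians of the lists and of the stretch around Hsp83, 262 of 263 values under the alternatives moved by less than the members' median implied standard error. That is the error of a single gene and not of a median, so few values could have moved by more. The antimicrobial peptides went from -3.09 to -1.91 with a pseudocount of 5 FPKM. Scaling both groups to the same summed FPKM (1043230 in hsromega66 and 893055 in Hsp90GFP as deposited) moved the median of all members from -0.05 to 0.16. It turned the sign of 16 of 43 list medians, none of them over 0.3 in size. Other pseudocounts and scales kept the direction of Hsromega, Hsp83 and the other called genes (384 values for the latter). A pseudocount cannot turn a sign, and the scale shifts were small beside the called differences, so this outcome was fixed beforehand. The stricter q and the Benjamini-Hochberg adjustment kept the call of Hsromega and the lack of one for Hsp83. The stretch around Hsp83 was an alternative added after the data were seen. Its median kept its direction in each setting run, with the same limit. No paired analysis was possible because the tables hold 1 value per group and none per library; leaving out each replicate was not run for the same reason. Depth per library is unknown, so no limit on low values can be given.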

Other observations

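Outside the members, 28 rows were called in this comparison, 5 that merge several genes and 23 under 5 FPKM in both genotypes. Of the 23 low rows, 21 were listed at 0 in 1 genotype, 12 were higher and 11 lower in Hsp90GFP. The heat shock gene Hsp70Ba was at 0.535 FPKM in Hsp90GFP and listed at 0 in each of the other 3 groups. IM23, an immune-induced peptide gene, was at 1.34 FPKM in hsromega66 and listed at 0 in Hsp90GFP, while WT was at 163 FPKM.

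Among the merged rows, CR42651 with mir-10, a microRNA of the Hox cluster, was at 0.891 FPKM in hsromega66 and 41.4 in Hsp90GFP, with 0.786 in WT. CG17325 with CG42305 went from 353 FPKM in hsromega66 to 37.2 in Hsp90GFP, with 1076 in WT. CG31659 with NLaz, a lipocalin of the stress response, went from 48.6 to 13.5 FPKM, with 49.4 in WT. The row of Unc-115a, Unc-115b and p24-2 was at 6.21 FPKM in hsromega66 and listed at 0 in Hsp90GFP and WT, against 17.997 FPKM in the libraries with the recombinant label. A merged row does not say which of its genes changed.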
